A study of Homo sapiens with 15 samples.

Results

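The BCL2 family genes MCL1, BCL2, BCL2L1, BCL2L2, BCL2L11, BAK1, BID, BAD, BIK and BMF were followed across 5 treatment groups of 12Z cells. They were chosen by name, as regulators of apoptosis, with earlier results of these data known. They are 10 of the 60617 gene identifiers in the count tables. The study asked whether mutant PIK3CA changes how endometriotic epithelium answers insulin, and whether viperin, the antiviral protein that RSAD2 encodes, is needed for it. mRNA was sequenced from 15 libraries of 12Z, an immortalised human epithelial line from an endometriotic lesion, with 3 independent experiments in each group. All cells received a pool of siRNAs, a pBabe plasmid 24 hours later by transient transfection, 4 hours without serum and then 24 hours of treatment in serum-free medium. The non-targeting group received non-targeting siRNA, the empty plasmid and vehicle. The other 4 groups all received RSAD2 siRNA (siRSAD2), with the empty plasmid and vehicle, the empty plasmid and 100 nM insulin, the PIK3CA H1047R plasmid and vehicle, or the PIK3CA H1047R plasmid and 100 nM insulin. H1047R makes the catalytic subunit of phosphatidylinositol 3-kinase overactive, and the plasmid copy comes on top of the endogenous gene. Insulin and H1047R were thus compared only in cells with the knockdown, in 1 cell line and with 1 siRNA pool per target.

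BCL2 family proteins decide whether the outer mitochondrial membrane stays intact. MCL1, BCL2, BCL2L1 (BCL-XL) and BCL2L2 (BCL-W) hold it closed by binding the effectors, BAK1 opens it so that cytochrome c escapes and caspases are activated, and the BH3-only proteins BCL2L11 (BIM), BID, BAD, BIK and BMF carry death signals by occupying the survival proteins or by engaging the effectors directly. Growth factor signalling through phosphatidylinositol 3-kinase and AKT is known to act on several of them, with BAD phosphorylated by AKT and BCL2L11 and BMF among the genes that FOXO factors can switch on. Uterine epithelium is renewed in each cycle, and the balance of these proteins has long been studied in endometrium and endometriosis.

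Levels are given as CPM, the gene's share of the library's counts in parts per M after scaling of library sizes by the TMM method, with the SD over n = 3 libraries. Differences are log2 fold changes with their standard error from edgeR's quasi-likelihood F test in 1 fit over the 15 libraries. Adjusted p values are Benjamini-Hochberg values over the 23184 genes that averaged 1 count per library or more, and a gene passed at an adjusted p under 0.05. All 10 members were tested. The shares given for all genes cover every tested gene and were not matched to the members in level. The siRSAD2 vehicle group serves as the reference of 3 comparisons and as the treated side of the siRNA comparison, so these comparisons share libraries. Gene counts summed to 16.1 to 39.7 M in each library (median 24.3 M). The counts behind a member ran from 2 to 45 per library for BIK to 2224 to 7008 for MCL1, so that BIK and BCL2 (51 to 228) are measured least precisely.

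RSAD2, the siRNA target, was at 3.29 ± 0.359 CPM in non-targeting cells and at 0.326 ± 0.324 CPM in siRSAD2 cells with empty plasmid and vehicle, a change of -3.29 ± 0.42 (edgeR adjusted p = 6.62e-07). It was at 0.331 ± 0.176 CPM with insulin, and at 0.899 ± 0.446 and 0.837 ± 0.0574 CPM in the H1047R groups with vehicle and insulin. The level left with H1047R was 2.82-fold that with the empty plasmid in vehicle (adjusted p = 0.108) and 2.56-fold in insulin (adjusted p = 0.285), differences that did not pass and rest on 2 to 56 counts per library. PIK3CA was at 89.0 ± 4.05 CPM with the empty plasmid and 211 ± 12.2 CPM with H1047R in siRSAD2 vehicle cells, where reads from the plasmid and from the endogenous gene are counted together. With insulin it was at 79.2 ± 2.53 and 163 ± 2.08 CPM. Of 6 epithelial markers, 4 averaged at least 1 CPM in every group, and EPCAM and CDH1 stayed under 1 CPM in each group mean. All 6 stromal markers averaged at least 1 CPM, with sums of 5970 to 7665 CPM per library against 1754 to 2386 CPM for the epithelial list. Some libraries stood apart. Replicate 3 of the siRSAD2 vehicle group held 486 genes at more than 3 times their level in every other library, none of them a member, and its immune marker sum of 12.4 CPM was the highest. Replicate 2 of the siRSAD2 insulin group differed most from its group, with up to 12.3 in chi-square per degree of freedom against 3.06 to 6.17 for all pairs without it. The libraries also fell into 2 sets by the share of gene counts on the forward strand. It was 5.77 to 5.89% in 8 libraries (all non-targeting, all siRSAD2 vehicle, and insulin replicates 1 and 2) and 6.11 to 6.50% in the other 7 (insulin replicate 3 and every H1047R library). H1047R and this library set therefore cannot be told apart, apart from insulin-treated cells, where 1 empty-plasmid library lies in the second set.

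Per length of exon, the survival genes MCL1 and BCL2L1 led the family and BCL2 and BIK were lowest. In non-targeting cells MCL1 stood at 42.3 ± 0.553 CPM per kb, BCL2L1 at 25.4 ± 0.187 and BAD at 23.4 ± 2.17, and the BCL2L1 and BAD libraries overlapped. BAK1 followed at 14.9 ± 1.66, then BID at 8.78 ± 0.201 and BCL2L11 at 8.57 ± 0.159, which overlapped each other, then BCL2L2 at 5.03 ± 0.297 and BMF at 2.82 ± 0.162. BCL2, the founding survival gene of the family, was at 0.361 ± 0.0562 and BIK at 0.246 ± 0.151 CPM per kb, again with overlapping libraries. In all 4 siRSAD2 groups the order at the top was turned over, with the strand-specific counts and the exon lengths used here. BCL2L1 ranked above MCL1, at 34.5 ± 0.837 against 23.8 ± 0.564 CPM per kb in the empty-plasmid vehicle group, with no overlap between them in any siRSAD2 group. MCL1 and BAD overlapped in the siRSAD2 group with H1047R and insulin, at 23.6 ± 0.929 and 23.1 ± 1.54. At the bottom, BIK ranked above BCL2 per length in the 3 siRSAD2 groups with insulin, H1047R or both. In the 2 insulin groups there was no overlap. BIK stood at 0.782 ± 0.138 against 0.274 ± 0.0513 with the empty plasmid and 1.10 ± 0.348 against 0.339 ± 0.141 with H1047R. This order comes with the lengths, 951 bases for BIK and 12612 for BCL2. Before division by length BCL2 was the higher in these insulin groups, at 3.46 against 0.744 CPM and 4.28 against 1.05 CPM. BIK rests on 12 to 45 counts per library there. The members between kept their ranks. These levels use exon length that no gene on the same strand covers, which leaves 5894 of 6222 bases for MCL1 (ADAMTSL4-AS1) and 4025 of 4840 for BCL2L2, whose exons are shared with the read-through transcript BCL2L2-PABPN1.

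**Figure D1:**
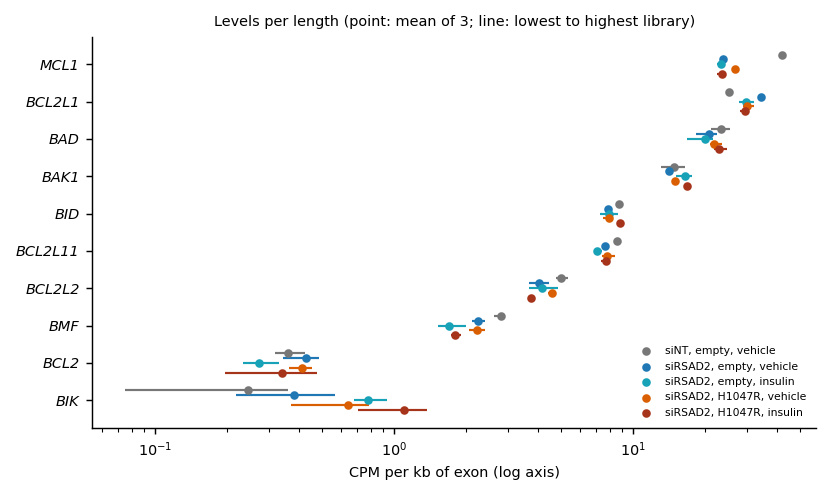
Level of each BCL2 family gene per length, in CPM per kb of exon on a log axis. Points are means of 3 libraries in each of the 5 groups and lines run from the lowest to the highest library. MCL1 leads at 42.3 in non-targeting cells (grey) and lies below BCL2L1 in every siRSAD2 group, while BCL2 and BIK stay at the bottom.

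The genes lie on separate chromosomes for the most part. Coordinates are hg38, from GENCODE 44. MCL1 (ENSG00000143384.13) occupies chromosome 1 from 150560895 to 150579738 on the minus strand and BCL2L1 (ENSG00000171552.13) chromosome 20 from 31664452 to 31723989 on the minus strand. BCL2L2 (ENSG00000129473.9) is on chromosome 14, 23298790 to 23311751, plus strand, and BCL2 (ENSG00000171791.13) on chromosome 18, 63123346 to 63320128, minus strand. BAK1 (ENSG00000030110.13) spans chromosome 6, 33572547 to 33580293, on the minus strand. Among the BH3-only genes, BCL2L11 (ENSG00000153094.23) spans chromosome 2, 111119378 to 111168444, plus strand, and BMF (ENSG00000104081.14) chromosome 15, 40087890 to 40108892, minus strand. BAD (ENSG00000002330.13) spans chromosome 11, 64269830 to 64284704, on the minus strand. BID (ENSG00000015475.18, minus strand, 17734138 to 17774770) and BIK (ENSG00000100290.3, plus strand, 43110750 to 43129712) are both on chromosome 22. Gene-level counts do not separate splice forms, such as the long and short forms of BCL2L1 and MCL1 whose proteins act in opposite ways. Several members face a gene on the other strand, which matters for counts made without strand. Unstranded counting left 51.2% of the BCL2L1 count, whose exons share 1735 bases with ABALON, and 18.7% of the BAD count, which shares 404 bases with GPR137.

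Promoters were available in the RefSeq tables (GRCh38.p14, the 250 bases before the start) for 7 of the 10 members, not for MCL1, BCL2L2 and BIK. The windows of the survival gene that rose with siRSAD2, BCL2L1, and of the FOXO-linked BH3-only genes that fell with it, BCL2L11 and BMF, are given here 5′ to 3′ on the gene's strand, with motif matches in capitals. BCL2L1 is chr20:31723964-31724213 (minus), BCL2L11 is chr2:111120664-111120913 (plus) and BMF is chr15:40108880-40109129 (minus). The RefSeq and GENCODE starts differ by 26 bases for BCL2L1, 13 for BMF and 1536 for BCL2L11, whose window lies inside the GENCODE gene and is upstream of the RefSeq start only.
BCL2L1: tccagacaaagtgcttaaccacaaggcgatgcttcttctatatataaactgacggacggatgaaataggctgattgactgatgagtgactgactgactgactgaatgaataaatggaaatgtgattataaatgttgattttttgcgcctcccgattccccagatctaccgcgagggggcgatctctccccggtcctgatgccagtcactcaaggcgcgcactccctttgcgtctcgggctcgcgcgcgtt
BCL2L11: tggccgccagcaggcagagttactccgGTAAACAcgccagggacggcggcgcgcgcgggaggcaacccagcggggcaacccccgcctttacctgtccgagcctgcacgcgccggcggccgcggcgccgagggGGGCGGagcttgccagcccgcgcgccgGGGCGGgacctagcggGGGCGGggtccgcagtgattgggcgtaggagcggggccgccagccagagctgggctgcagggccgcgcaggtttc
BMF: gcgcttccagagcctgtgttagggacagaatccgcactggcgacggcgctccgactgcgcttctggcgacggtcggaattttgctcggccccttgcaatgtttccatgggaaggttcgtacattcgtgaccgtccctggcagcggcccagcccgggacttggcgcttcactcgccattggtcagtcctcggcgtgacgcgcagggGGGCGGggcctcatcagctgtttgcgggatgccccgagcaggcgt
Motifs were searched on both strands. BCL2L1, BAD and BMF have 2 RefSeq starts each and BID has 5, and only the window nearest the GENCODE start is described. The share of all 35116 RefSeq promoter windows of the same length that hold each motif is given beside the members. That share counts every start of a gene. The FOXO motif TGTTTAC was found in 2.98% of windows and in 1 of the 7 members, BCL2L11, on the reverse strand with its match starting 223 bases before the RefSeq start. The GC box GGGCGG was found in 42.6% of windows and in 4 of the 7, BCL2L11 with 3 matches (118, 91 and 75 bases before the start), BAK1 with 2, and BAD and BMF with 1 each. The CRE core TGACGT was found in 7.1% of windows and in 1 of the 7, BAD, and the E-box CACGTG in 6.34% of windows and in none of the 7. The BCL2L1 window printed here holds no match to any of them. A match here describes letters and not a bound site.

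RSAD2 siRNA was compared with non-targeting siRNA, both with empty plasmid and vehicle. With 1 pool per target, loss of RSAD2 and other effects of the pool cannot be told apart. The non-targeting libraries are numbered 4 to 6 and the siRSAD2 libraries 1 to 3. A difference between differently numbered experiments cannot be told apart from the siRNA either. MCL1 fell to 0.563 times its level, BCL2L1 rose 1.36-fold, and BCL2L2, BMF and BCL2L11 fell by less. Of the 10 members 5 passed, 1 higher and 4 lower, where 19.5% of all genes passed (9.82% higher and 9.72% lower). The groups did not overlap for 6 members, where they did not for 33.2% of all genes. The median change of the members was -0.16 against 0.02 for all genes tested.

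MCL1, the short-lived survival protein that restrains BAK1 and BCL2L11, had 246, 252 and 251 CPM in the non-targeting libraries and 144, 139.7 and 138 CPM in the siRSAD2 libraries. Every non-targeting library lay far above every siRSAD2 library, and the same held for the 9 libraries with siRSAD2 plus insulin or H1047R, which ran from 132 to 161 CPM. The change was -0.83 ± 0.05 (edgeR adjusted p = 1.42e-14). In these bulk samples fewer cells of a kind and less RNA per cell cannot be told apart. BCL2L1, the other abundant survival gene, had 107, 106 and 107 CPM in the non-targeting libraries and 141, 148 and 146 CPM in the siRSAD2 libraries. The groups were well separated in the opposite direction, with a change of 0.44 ± 0.05 (edgeR adjusted p = 2.14e-07). These 2 calls held in 15 of 15 alternative settings, with changes of -0.84 to -0.81 for MCL1 and 0.44 to 0.50 for BCL2L1.

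**Figure D2:**
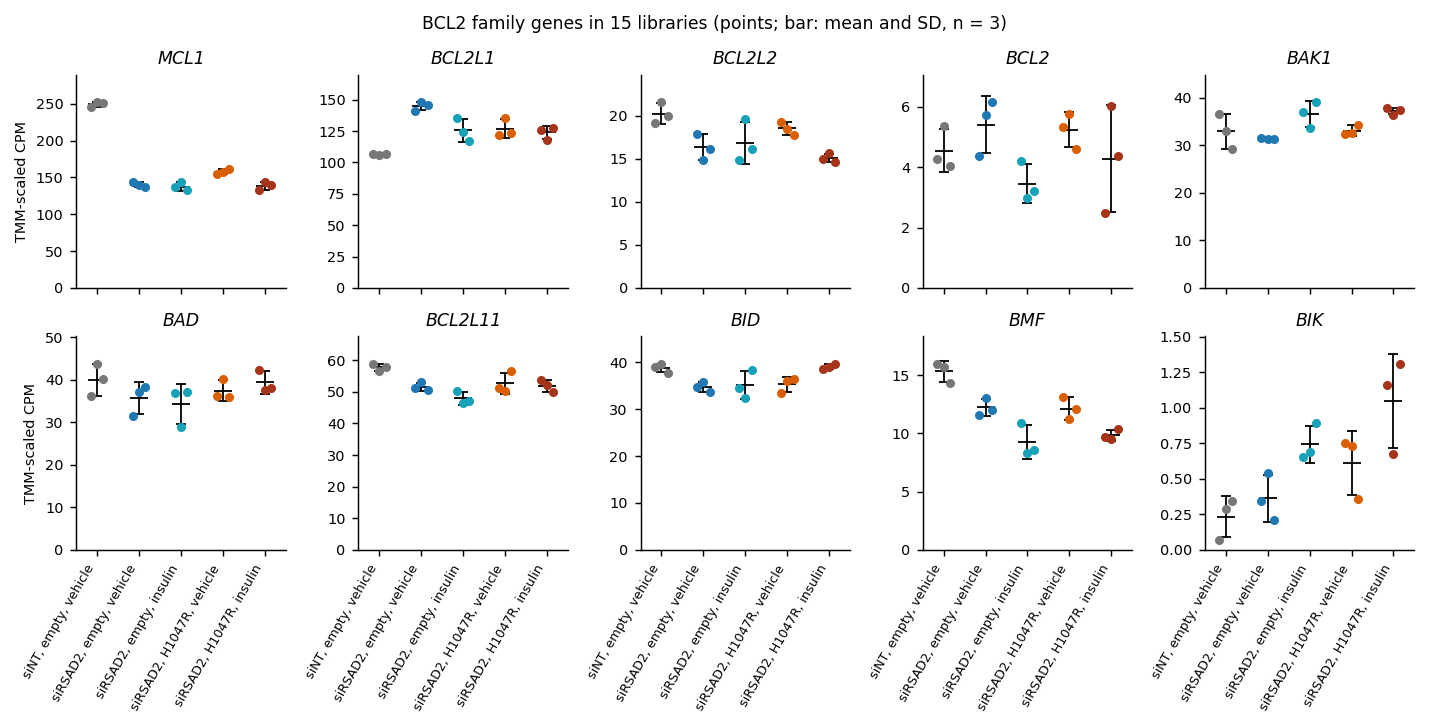
TMM-scaled CPM of the 10 BCL2 family genes in each library (points) by treatment group, with the mean and SD of 3 libraries (bars); each panel has its own axis from 0. MCL1 drops from 246 to 252 CPM in the non-targeting libraries to 138 to 144 CPM with siRSAD2, and BCL2L1 rises from 106 to 107 CPM to 141 to 148 CPM.

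Set against each other per length, the MCL1 to BCL2L1 ratio was 1.67 ± 0.0310 in non-targeting cells (1.64 to 1.70) and 0.690 ± 0.0320 in siRSAD2 vehicle cells (0.671 to 0.727). It was 0.783 ± 0.0557 with insulin, 0.888 ± 0.0552 with H1047R and 0.800 ± 0.0611 with both. MCL1 was the higher of the pair in 3 of 3 non-targeting libraries and the lower in 12 of 12 siRSAD2 libraries (0.671 to 0.931). The ratio was chosen after the values were seen and is given without a test. Whether it lies below 1 depends on the strand setting, because unstranded counting removes reads from BCL2L1. The exon lengths matter as well, 5894 bases for MCL1 and 4197 for BCL2L1. Before division by length, mean CPM in siRSAD2 vehicle cells was lower for MCL1 than for BCL2L1 (140 against 145). MCL1 was then the higher with insulin (138 against 125), H1047R (158 against 127) and both (139 against 124). With unstranded counts the ratio was 3.27 in non-targeting cells and 1.31, 1.59, 1.78 and 1.59 in the siRSAD2 groups in the same order, so that MCL1 was then higher in every group while the siRSAD2 groups still lay below the non-targeting group.

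**Figure D3:**
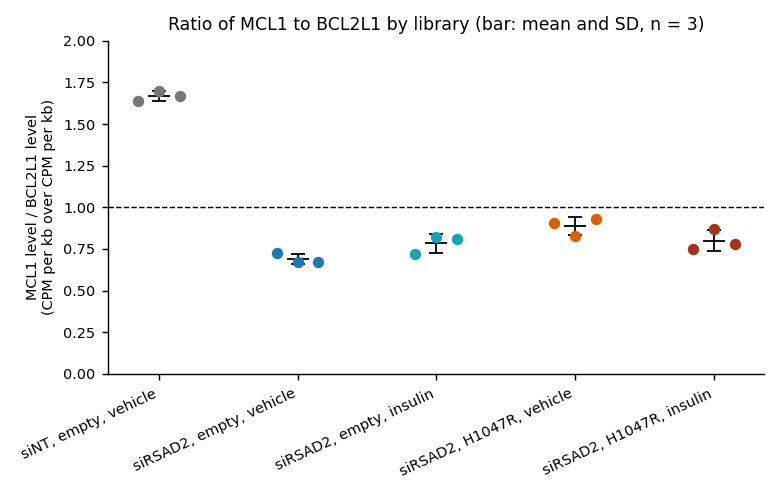
Ratio of MCL1 to BCL2L1, each in CPM per kb of exon, in each library (points) with the mean and SD of 3 libraries; the dashed line marks equal levels. Non-targeting libraries sit at 1.64 to 1.70 and all 12 siRSAD2 libraries at 0.671 to 0.931.

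BCL2L2, a survival gene of moderate level here, had 19.2, 21.5 and 20.0 CPM in the non-targeting libraries and 17.9, 14.9 and 16.2 CPM in the siRSAD2 libraries. The groups did not overlap, by a small margin, and the change was -0.31 ± 0.09 (edgeR adjusted p = 0.0150). Without siRSAD2 replicate 2 it was -0.23 (adjusted p = 0.121) and without non-targeting replicate 5 it was -0.26 (adjusted p = 0.0931). BMF, a BH3-only gene whose product binds dynein light chain and is released by loss of attachment, had 15.9, 15.7 and 14.3 CPM against 11.6, 13.1 and 12.0 CPM. All siRSAD2 values lay below all non-targeting values, with a change of -0.33 ± 0.10 (edgeR adjusted p = 0.0169). It no longer passed in 4 of 6 fits that left out a library (adjusted p = 0.0554 to 0.0870 in those).

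BCL2L11, the BH3-only gene that binds every survival member, had 58.7, 56.6 and 58.0 CPM in non-targeting cells and 51.3, 53.0 and 50.6 CPM with siRSAD2. The groups were apart but close, and the change of -0.16 ± 0.06 passed narrowly (edgeR adjusted p = 0.0444) and in none of the 6 fits without a library (adjusted p = 0.0683 to 0.154). BID, which is cleaved by caspase-8 and links death receptors to mitochondria, had 39.1, 39.5 and 37.8 CPM against 34.6, 35.7 and 33.7 CPM. Its groups did not overlap either, but the change of -0.16 ± 0.06 did not pass (edgeR adjusted p = 0.0736). The other 4 members overlapped between the groups. BAK1, the effector, changed by -0.07 ± 0.07 (edgeR adjusted p = 0.557, 95% interval -0.22 to 0.07) and BAD, which frees BCL2L1 and BCL2 from their partners, by -0.17 ± 0.09 (adjusted p = 0.195, -0.34 to 0.01). BAD ranged from -0.07 (adjusted p = 0.680) without siRSAD2 vehicle replicate 1 to -0.23 (adjusted p = 0.0952) without non-targeting replicate 4, and passed in none of the 6 fits that left out 1 library. Without both libraries that stand apart it was at -0.23 and passed (adjusted p = 0.0305), and BCL2L11 did not at -0.15 (adjusted p = 0.0846). BCL2 had 0.24 ± 0.20 (adjusted p = 0.440, -0.16 to 0.64) and BIK, a BH3-only protein of the endoplasmic reticulum, 0.64 ± 0.53 (adjusted p = 0.465, -0.45 to 1.73), both with wide intervals.

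Among 9 tested of 11 other family genes, 3 were higher and 3 lower. BBC3 (PUMA) rose by 0.79 ± 0.13 (edgeR adjusted p = 4.49e-05), BAX, the effector beside BAK1, by 0.31 ± 0.05 (adjusted p = 7.07e-05) and PMAIP1 (NOXA), which binds MCL1, by 0.39 ± 0.07 (adjusted p = 0.000102). BOK (-0.23 ± 0.08), BCL2L12 (-0.33 ± 0.07) and BCL2L13 (-0.17 ± 0.05) were lower. Of the BH3-only genes, BBC3 and PMAIP1 were thus higher where BMF and BCL2L11 were lower. Of 24 partners and regulators of the members 2 were higher and 7 lower, and the 2 were DYNLL2, the dynein light chain that tethers BMF, at 0.52 ± 0.05 (edgeR adjusted p = 5.67e-09) and SFN, a 14-3-3 protein, at 0.91 ± 0.11 (adjusted p = 2.49e-07).

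Of 14 caspase and apoptosome genes 3 were higher and 2 lower, led by APAF1, the scaffold that cytochrome c activates, at 0.38 ± 0.05 (edgeR adjusted p = 1.99e-06) and CASP2 at 0.28 ± 0.05 (adjusted p = 7.54e-05), with PARP1 also higher and CASP10 and DFFB lower. Of 8 tested inhibitor of apoptosis genes and their antagonists, pooled in 1 list, none was higher and 3 were lower. These were the inhibitors BIRC2 at -0.34 ± 0.06 (edgeR adjusted p = 9.73e-05) and BIRC5 at -0.21 ± 0.04 (adjusted p = 0.000715), and the antagonist XAF1, whose groups overlapped. Of 11 tested death receptor genes 5 were higher and 3 lower. TNFRSF10B, a TRAIL receptor, rose by 0.41 ± 0.04 (adjusted p = 8.65e-09) and FAS by 0.77 ± 0.08 (adjusted p = 4.49e-08). The 3 lower were TNFSF10 (TRAIL) at -0.67 ± 0.09 (edgeR adjusted p = 1.48e-06), TNFRSF1A at -0.41 ± 0.05 (adjusted p = 6.26e-07) and FADD at -0.24 ± 0.07 (adjusted p = 0.0176). The median change was 0.31 over the other family genes, -0.04 over the partners and near 0 over the caspase genes. The 0.31 leans on BCL2L10 (0.94, edgeR adjusted p = 0.244) and BCL2L15 (0.34, adjusted p = 0.894), which did not pass. BCL2L15 rests on 1 to 4 counts per library, and as many of these family genes passed lower as higher. It was -0.18 over the inhibitor of apoptosis genes and their antagonists pooled and 0.08 over the death receptor genes, against 0.02 over all genes. Epithelial marker sums were 2352 to 2386 CPM in non-targeting libraries and 1900 to 2038 CPM in siRSAD2 libraries (3 of 6 markers lower), and stromal sums 7235 to 7665 and 6994 to 7107 CPM (2 higher, 4 lower). Their part in the members' changes was not tested. All libraries of this comparison lie in the same library set.

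**Figure D4:**
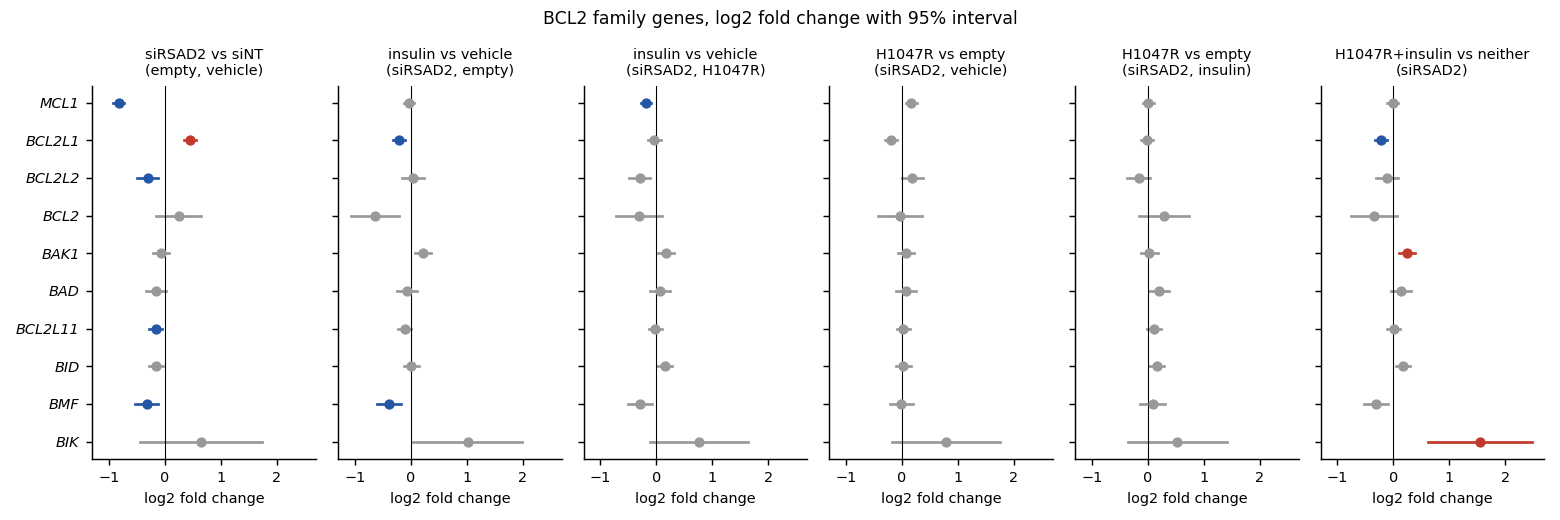
Log2 fold change of each BCL2 family gene with its 95% interval in the 6 comparisons of a pair of groups; red passed as higher, blue as lower and grey did not pass. MCL1 at -0.83 and BCL2L1 at 0.44 in the siRNA panel stand clear of 0, and BIK has the widest intervals in every panel.

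Insulin against vehicle in siRSAD2 cells with empty plasmid asked how the knockdown cells answer insulin. BCL2L1 and BMF fell. These were 2 of the 10 members, both lower, where 6.28% of all genes passed (2.1% higher and 4.19% lower). The groups did not overlap for 6 members, against 18.9% of all genes, and the median change was -0.04 against 0.00. BCL2L1 had 141, 148 and 146 CPM with vehicle and 135, 124 and 117 CPM with insulin. All insulin libraries were lower, the nearest by little, and the change was -0.21 ± 0.05 (edgeR adjusted p = 0.0161). The insulin libraries stayed above the 106 to 107 CPM of non-targeting cells. BMF had 11.6, 13.1 and 12.0 CPM with vehicle and 10.9, 8.33 and 8.57 CPM with insulin. Insulin replicates 2 and 3 were low and replicate 1 lay close to the vehicle group, and the change was -0.39 ± 0.11 (edgeR adjusted p = 0.0226).

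Both calls were lost in some fits without a library. Without insulin replicate 3, the insulin library of the other set, BCL2L1 was at -0.17 (adjusted p = 0.0813) and BMF at -0.35 (adjusted p = 0.0787), and without vehicle replicate 2 they were at -0.20 (adjusted p = 0.0501) and -0.35 (adjusted p = 0.0860). BMF was lost also without insulin replicate 2, at -0.31 (adjusted p = 0.118). A fit only within the first library set gave -0.17 for BCL2L1 (adjusted p = 0.146) and -0.35 for BMF (adjusted p = 0.163). Without both libraries that stand apart BMF was at -0.32 (adjusted p = 0.170) and BCL2L1 at -0.19 (adjusted p = 0.0496).

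BCL2 and BAK1 were apart between the groups without passing. BCL2 had 4.36, 5.73 and 6.15 CPM with vehicle and 4.19, 2.96 and 3.22 CPM with insulin, a change of -0.64 ± 0.21 (edgeR adjusted p = 0.0647). The gap between the nearest libraries was small, and BCL2 rests on 54 to 177 counts per library here. It passed without insulin replicate 1 (-0.81, adjusted p = 0.0322), without vehicle replicate 1 (-0.78, adjusted p = 0.0296) and with no filter on low counts (adjusted p = 0.00517). It was nearer 0 without insulin replicate 2 (-0.53, adjusted p = 0.201) and without vehicle replicate 3 (-0.54, adjusted p = 0.210), and at -0.42 (adjusted p = 0.381) without both of these libraries, the ones that stand apart. BAK1 had 31.5, 31.3 and 31.4 CPM with vehicle and 37.1, 33.6 and 39.1 CPM with insulin, a change of 0.22 ± 0.07 (edgeR adjusted p = 0.0712). All insulin libraries were higher than the tight vehicle group, and without insulin replicate 2 BAK1 passed at 0.27 (adjusted p = 0.0213). Without insulin replicate 3, the library of the other set, it was at 0.16 (adjusted p = 0.273), and within the first set at 0.16 (adjusted p = 0.419). BIK was at 1.02 ± 0.48 (adjusted p = 0.231) with 6 to 14 counts against 15 to 16, and BCL2L11 at -0.11 ± 0.06 (adjusted p = 0.343). MCL1 had 144, 139.7 and 138 CPM with vehicle and 137, 144 and 132 CPM with insulin. The groups overlapped, at -0.03 ± 0.05 (adjusted p = 0.812) with an interval of -0.12 to 0.07. BCL2L2 (0.04 ± 0.09), BID (0.01 ± 0.07) and BAD (-0.06 ± 0.09) did not pass either.

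Around the members, 1 of 9 other family genes was lower, BOK at -0.33 ± 0.08 (edgeR adjusted p = 0.0139), a call that was lost at -0.19 without insulin replicate 2. Of 24 partners and regulators 4 were higher and 1 lower, led by FBXW7, the ubiquitin ligase subunit that marks MCL1 for breakdown, at 0.33 ± 0.07 (adjusted p = 0.00453) and SFN at 0.40 ± 0.10 (adjusted p = 0.0130), with YWHAZ and VDAC3 also higher. Of 14 caspase and apoptosome genes CYCS, cytochrome c itself, was higher at 0.22 ± 0.06 (adjusted p = 0.0371), and 0.09 without insulin replicate 2. Of 8 inhibitor of apoptosis genes and their antagonists XAF1, an antagonist of XIAP, was higher at 0.44 ± 0.12 (adjusted p = 0.0187). Of 11 death receptor genes 3 were higher and 1 lower, with FAS at 0.43 ± 0.08 (adjusted p = 0.000659), TNFRSF10B and TNFRSF10D higher and TNFRSF21 at -0.37 ± 0.06 (adjusted p = 3.62e-05). Stromal marker sums were 6994 to 7107 CPM with vehicle and 5970 to 6679 CPM with insulin, without overlap, with 2 of 6 markers lower, VIM by -0.31 ± 0.04 (adjusted p = 2.42e-06) and COL3A1 by -0.13 ± 0.04 (adjusted p = 0.0333). Epithelial sums were 1900 to 2038 and 1754 to 2054 CPM, with 1 of 6 markers lower, KRT18 by -0.22 ± 0.05 (adjusted p = 0.00794). Their part in the members' changes was not tested.

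In siRSAD2 cells with H1047R, insulin lowered MCL1. It was the only member of 10 that passed, where 2.47% of all genes did (0.483% higher and 1.99% lower), and groups did not overlap for 5 members against 19.4% of all genes. MCL1 had 155, 157 and 161 CPM with vehicle and 133, 144 and 139.7 CPM with insulin. The groups were separate, and the change was -0.18 ± 0.05 (edgeR adjusted p = 0.0224). It passed in 1 of 6 fits that left out a library, the one without H1047R insulin replicate 2, with values of -0.20 to -0.15 and adjusted p of 0.0283 to 0.215. BCL2L2 had 19.3, 18.5 and 17.8 CPM with vehicle and 15.01, 15.6 and 14.6 CPM with insulin. All insulin libraries were lower, but the change of -0.30 ± 0.09 did not pass (edgeR adjusted p = 0.101), and it passed when only these groups were fitted (adjusted p = 0.0117). BMF had 13.2, 11.2 and 12.1 CPM against 9.69, 9.50 and 10.4 CPM, also apart, at -0.29 ± 0.11 (adjusted p = 0.204).

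BAK1 at 0.17 ± 0.07 (edgeR adjusted p = 0.316) and BID at 0.15 ± 0.06 (adjusted p = 0.356) were apart and higher with insulin, without passing. BCL2L1, which fell with insulin under the empty plasmid, had 122, 135 and 123 CPM with vehicle and 126, 118 and 128 CPM with insulin. The groups overlapped at -0.03 ± 0.05 (adjusted p = 0.941). BCL2 (-0.32 ± 0.20), BIK (0.76 ± 0.43), BAD (0.06 ± 0.09) and BCL2L11 (-0.02 ± 0.06) did not pass. Of the partners 2 of 24 were higher, SFN at 0.49 ± 0.10 (adjusted p = 0.00308) and YWHAZ at 0.15 ± 0.04 (adjusted p = 0.0347), both 14-3-3 proteins, the family that holds phosphorylated BAD in the cytosol. No gene of the other 4 pathway lists passed. PIK3CA, plasmid and endogenous reads together, was lower with insulin as well, with 199 to 223 CPM against 160 to 164 CPM, at -0.38 ± 0.05 (adjusted p = 9.53e-06). Of the 6 stromal markers 1 was lower, VIM by -0.26 ± 0.04 (adjusted p = 8.51e-05), and their sums overlapped at 6781 to 6932 and 6454 to 6981 CPM. The part of either in the change of MCL1 was not tested.

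Whether insulin acted differently with H1047R was tested by the interaction. None of the 10 members passed, and 0% of all genes did, with 1611 of 23184 at an unadjusted p under 0.05 in edgeR and a smallest adjusted p of 0.493. DESeq2 called none of the members either. BCL2L2 was at -0.35 ± 0.13 (edgeR adjusted p = 0.692), BCL2L1 at 0.17 ± 0.08 (adjusted p = 0.706) and MCL1 at -0.15 ± 0.06 (adjusted p = 0.699). These 3 were the members at an unadjusted p under 0.05, and had 95% intervals that exclude 0 before adjustment over all genes, at -0.62 to -0.07, 0.02 to 0.33 and -0.29 to -0.02. The insulin changes of BCL2L1 under the empty plasmid and of MCL1 under H1047R are therefore not shown to differ between the plasmids.

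H1047R against empty plasmid in siRSAD2 cells with vehicle asked what the mutant does without insulin. No member passed in edgeR, with 2 at an unadjusted p under 0.05, where 1.36% of all genes passed (0.621% higher and 0.742% lower). The 6 libraries divide by library set exactly as by plasmid. MCL1 had 144, 139.7 and 138 CPM with empty plasmid and 155, 157 and 161 CPM with H1047R. The groups were apart, at 0.17 ± 0.05 (edgeR adjusted p = 0.0592). BCL2L1 had 141, 148 and 146 CPM against 122, 135 and 123 CPM, apart in the other direction at -0.19 ± 0.05 (adjusted p = 0.0682). Both passed under DESeq2, with adjusted p of 0.0137 and 0.0188. With a term for the library set MCL1 was at 0.25 (adjusted p = 0.859) and BCL2L1 at -0.04 (adjusted p = 0.993). Only the empty-plasmid insulin group holds both sets, so that term rests on insulin replicate 3 against replicates 1 and 2. It cannot separate the set from the plasmid with any precision. BAK1 was the third member whose groups did not overlap, at 0.08 ± 0.07 (adjusted p = 0.748), where 19% of all genes had groups that did not. BCL2L2 was at 0.18 ± 0.09 (adjusted p = 0.421) and BIK at 0.79 ± 0.47 (adjusted p = 0.528). The remaining 5, BCL2, BCL2L11, BID, BAD and BMF, lay within -0.03 to 0.08. Around the members GSK3A, whose kinase family can mark MCL1 for breakdown, was lower at -0.35 ± 0.07 (edgeR adjusted p = 0.00690), VDAC2, a channel that binds BAK1, higher at 0.22 ± 0.06 (adjusted p = 0.0483) and XAF1 higher at 0.66 ± 0.11 (adjusted p = 0.00198), with none of the other 3 lists represented.

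With insulin present, H1047R against empty plasmid gave no member past the threshold in edgeR, with 2 at an unadjusted p under 0.05 and none called by DESeq2, where 0.285% of all genes passed (0.22% higher and 0.0647% lower). BAD, with 36.9, 28.9 and 37.1 CPM against 42.4, 37.6 and 38.2 CPM, was at 0.20 ± 0.09 (edgeR adjusted p = 0.414). BID, with 34.6, 32.3 and 38.3 CPM against 38.5, 39.1 and 39.6 CPM, was at 0.16 ± 0.07 (adjusted p = 0.358). These were the 2 members whose groups did not overlap, against 12.8% of all genes, and insulin replicate 2 was the low library in both. MCL1 (0.01 ± 0.05) and BCL2L1 (-0.02 ± 0.05) lay at nearly the same level with either plasmid, with intervals of -0.08 to 0.11 and -0.13 to 0.09. The only gene of the pathway lists to pass was TNFRSF10D, a TRAIL decoy receptor, at -0.31 ± 0.07 (edgeR adjusted p = 0.0464).

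H1047R with insulin against neither, in siRSAD2 cells, sets cells given both beside cells given the empty plasmid and vehicle. BCL2L1 fell, and the effector BAK1 and the BH3-only gene BIK rose. These were 3 of 10 members, 2 higher and 1 lower, where 7.74% of all genes passed (2.92% higher and 4.82% lower). Groups did not overlap for 5 members, against 25.5% of all genes. BCL2L1 had 141, 148 and 146 CPM with neither and 126, 118 and 128 CPM with both, fully apart, at -0.22 ± 0.05 (edgeR adjusted p = 0.00664), and it passed in 6 of 6 fits that left out a library. BAK1 had 31.5, 31.3 and 31.4 CPM against 37.8, 36.4 and 37.5 CPM. Both groups were tight and apart, at 0.25 ± 0.07 (adjusted p = 0.0294), yet it passed in none of 6 fits without a library (adjusted p = 0.0639 to 0.110). BIK had 0.346, 0.538 and 0.208 CPM, from 6 to 14 counts, against 1.16, 0.675 and 1.31 CPM, from 12 to 45 counts.

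The BIK groups were apart, at 1.55 ± 0.46 or 2.93-fold (edgeR adjusted p = 0.0323), with a 95% interval of 0.61 to 2.48 that shows how loosely so few counts fix the size. BIK passed in 2 of 6 fits without a library, those without vehicle replicate 2 and without replicate 2 of the group with both. It did not pass without vehicle replicate 3, the library that stands apart (1.28, adjusted p = 0.111). BMF at -0.30 ± 0.10 (adjusted p = 0.0737) and BID at 0.17 ± 0.06 (adjusted p = 0.105) were apart without passing. MCL1 (-0.01 ± 0.05), BCL2L11 (0.01 ± 0.06), BCL2L2 (-0.12 ± 0.09), BAD (0.14 ± 0.09) and BCL2 (-0.35 ± 0.20) did not pass. The 2 groups lie in different library sets. With a term for the set none of the 3 passed, BCL2L1 at -0.07 (adjusted p = 0.891), BAK1 at 0.10 (adjusted p = 0.883) and BIK at 1.13 (adjusted p = 0.769). That term rests on the empty-plasmid insulin group, the only group that holds both sets. Of 24 partners 4 were higher and 3 lower, among them FOXO4, a FOXO transcription factor, at -0.41 ± 0.08 (edgeR adjusted p = 0.00135). XAF1 was higher at 0.92 ± 0.11 (adjusted p = 1.25e-06), and of 11 death receptor genes 2 were higher and 1 lower, TNFRSF21 at -0.23 ± 0.06 (adjusted p = 0.00652), TNFRSF10B at 0.14 ± 0.04 (adjusted p = 0.0326) and FAS. None of the other family genes or caspase genes passed. Stromal marker sums were 6994 to 7107 CPM with neither and 6454 to 6981 CPM with both, without overlap (2 of 6 markers lower), and epithelial sums 1900 to 2038 and 1997 to 2136 CPM (1 higher). Their part was not tested.

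Over all 5 groups at once, 7 of the 10 members differed, where 28.4% of all genes did, a share not matched in level. The order by adjusted p (edgeR) was MCL1 (7.23e-16), BCL2L1 (4.42e-06), BMF (1.41e-05), BCL2L2 (0.00499), BIK (0.00524), BCL2L11 (0.0113) and BAK1 (0.0306). BID (0.0607), BCL2 (0.0941) and BAD (0.190) did not pass. From the lowest to the highest library the range was 1.90-fold for MCL1, 1.91-fold for BMF and 1.40-fold for BCL2L1. It was 1.22-fold for BID and 1.26-fold for BCL2L11, the steadiest members, and 18.3-fold for BIK, whose lowest library holds 2 counts.

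The genes most like the 3 leading members were found among 13117 genes averaging at least 1 CPM by the root mean square distance of centred log2 CPM over the 15 libraries. For MCL1, whose own SD over the libraries is 0.33, they were ACSL4 (0.0632), OIP5-AS1 (0.0662) and RAB14 (0.0681). For BCL2L1 (SD 0.15) they were P3H4 (0.0571), BCORL1 (0.0607) and SELENON (0.0621). For BMF (SD 0.28) they were PIK3CD (0.0794), a catalytic subunit of phosphatidylinositol 3-kinase, WNT5B (0.0885) and PPL (0.0928). The points share libraries and groups, and the likeness is a description of these 15 libraries. None of these 9 genes is a member.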

How the data were processed

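The members and gene lists were chosen with earlier results of these data known. Before deposition the authors cut adapters from read pairs (cutadapt, Trim Galore), ran FastQC and mapped to hg38 with STAR. The values they deposited are raw gene counts per library, unstranded and for each strand. Versions were not given in the sources used here, and the annotation the methods name carries a mouse release number although the identifiers are human. Reverse-stranded counts were used, as in the study, which tested with DESeq2. STAR leaves out reads that fall on more than 1 gene or location.

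Of 60617 identifiers 60357 matched GENCODE 44, which gave symbols, coordinates and exon lengths. Groups followed the labels, 3 libraries each. Genes averaging 1 count per library or more entered edgeR 4.0.16 (R 4.3.3), with TMM, a term per group and 10 residual degrees of freedom. Standard errors are the log2 fold change over the square root of F. The p values measure the spread between independent experiments in 1 line. The test was also run on simulated counts that held no library standing apart and no library sets. That run cannot show how the test behaves with either.

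Every member is described, with RSAD2 and PIK3CA, the 2 called genes of smallest p from each other list and comparison, and for 3 members the 3 most similar genes. Genes named beyond these, where a list had few calls or to name calls in both directions, were added after their values were seen. A gene that the rule names is not reported here. Alternatives were DESeq2 1.42.0, RLE size factors, edgeR's filter or none, a threshold of 0.001, unstranded counts, only the groups compared, a replicate block, whole exon lengths and leaving out each library. A term for the library set, a fit within a set and a fit without both libraries that stand apart were added after the data were seen. No set test was run.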

Additional observations from a re-analysis of the deposited data

How the results depend on the processing

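No member or pathway gene with a called change turned its direction under any alternative. Over the members 1045 values stayed on the same side of the threshold, the uncalled ones also within their standard error of the main fit. Closeness was not asked of called changes. Beside these, 56 called changes were no longer past the threshold, 18 came to pass and 56 uncalled values moved by more than their standard error. At an adjusted p threshold of 0.001 the members called fell to 2 for RSAD2 siRNA, MCL1 and BCL2L1, to 3 over the 5 groups, and to 0 for insulin with either plasmid and for H1047R with insulin against neither. For H1047R with vehicle, where no member passed, DESeq2, edgeR's own filter and the fit of only the compared groups each called 2, and no filter and unstranded counts each called 1. The fit of only the compared groups called 0 for insulin with empty plasmid and 2 for insulin with H1047R. A term for the library set left 0 calls for insulin with empty plasmid and 0 for H1047R with insulin against neither. That term rests on the empty-plasmid insulin group, the only group that holds both sets. A fit within 1 library set left 0 for insulin with empty plasmid. Leaving out each library in turn gave 2 to 4 members for RSAD2 siRNA (5 with all libraries), 0 to 3 for insulin with empty plasmid (2), 0 to 1 for insulin with H1047R (1), 0 to 1 for H1047R with vehicle (0), 1 to 2 for H1047R with insulin against neither (3) and 6 to 8 over the 5 groups (7). These fits hold fewer samples, and 2 libraries are then assumed to vary like the other groups. With whole exon lengths 48 of 50 ranks of level stayed, MCL1 and BAD changing places in siRSAD2 cells with H1047R and insulin. Replicate numbers did not pair the samples. Deviations of same-numbered libraries correlated at -0.127 to 0.156 over 18 pairs, 2 of them over 0.1, against -0.147 to 0.130 over 36 pairs of different number, and with a replicate block the members called were 2 for insulin with empty plasmid, 1 with H1047R, 0 for H1047R with either treatment, 0 for the interaction and 3 for H1047R with insulin against neither, as without it. The siRNA groups share no replicate number, so they had no block. Depth limits BIK most, with 2 to 45 counts per library, and DESeq2 gave it no adjusted p for H1047R with insulin against neither.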
